A study of Mus musculus with 8 samples.

Results

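Transcripts of the common gamma chain cytokine receptors and of the JAK-STAT5 kinases and factors they use were described in CD4+ T cells from arthritic mouse knees. The 10 genes were chosen by symbol: Il2rb, Il2rg, Il7r, Il4ra, Il21r, Jak1, Jak3, Stat5a, Stat5b and Socs1. All 10 were found among the 24421 symbols of the count table, and all 10 were abundant enough to be tested beside 8489 genes in all. Every donor was a male mouse, 16 weeks old, in which antigen induced arthritis had been set up, and the cells were sorted after its knees were digested. Mice of one genotype had the Slc7a5 knockout (4 libraries, called knockout) and the others were wild type (4 libraries). Slc7a5 encodes LAT1, an importer of large neutral amino acids. The sources used here did not say which part of Slc7a5 was deleted, nor give any Cre driver, the number of cells or the animal behind each library. For that reason the p-values speak only of spread among libraries, some of which may be technical.

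Interleukins 2, 4, 7, 9, 15 and 21 signal through receptors that share the gamma chain encoded by Il2rg. The gamma chain binds the kinase JAK3, and the partner chains bind JAK1. Both kinases then phosphorylate STAT proteins, of which STAT5A and STAT5B carry the growth and survival signals of interleukins 2, 7 and 15 in T cells. SOCS1 is induced by this signalling and inhibits the kinases. Activated T cells depend on interleukin 2 and interleukin 15, and resting and memory T cells on interleukin 7.

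Upstream windows from RefSeq (GRCm38.p6) were matched for 9 of the genes, Il2rb excepted, and the 250 bases before each annotated start site were searched on both strands. The letters TTCNNNGAA, the core bound by STAT dimers, occurred in 1 of 11 windows, that of Il7r, and in 7.02% of all 32851 windows. The letters CCGGAAG, a core bound by ETS-family factors, occurred in 1 of 11 windows, that of Il2rg, and in 6.91% of all windows. These windows are shown because Il2rg and Il7r had the highest levels per length among the 5 receptor chains in both genotypes. The Il7r window is chr15:9529877-9530126 on the minus strand, and the Il2rg window is chrX:101268256-101268505 on the minus strand. Capitals mark the STAT core in Il7r, which begins at position -142 from the start site of that window, and the ETS core in Il2rg. That start site lies inside the Il7r span given below, which ends at 9529941, so part of the window lies within the span. Counted from the end of the span, the core would lie nearer. A match is a description of letters, not of a bound site.
Il7r: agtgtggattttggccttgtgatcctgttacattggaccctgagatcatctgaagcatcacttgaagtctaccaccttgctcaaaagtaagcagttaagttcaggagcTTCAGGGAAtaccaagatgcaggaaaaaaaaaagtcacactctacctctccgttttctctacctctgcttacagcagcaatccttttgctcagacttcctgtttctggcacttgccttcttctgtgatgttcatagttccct
Il2rg: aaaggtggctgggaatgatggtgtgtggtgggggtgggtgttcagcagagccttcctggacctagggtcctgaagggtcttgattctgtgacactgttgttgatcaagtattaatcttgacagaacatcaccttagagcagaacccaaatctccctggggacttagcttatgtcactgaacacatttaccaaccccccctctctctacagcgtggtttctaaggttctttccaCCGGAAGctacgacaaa

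Library totals were 18837650 to 25853856 counts in knockout and 21873678 to 36436923 in wild type. Knockout replicates 1 to 4 had counts for 8640, 7684, 9358 and 5221 genes, against 10139, 9934, 9815 and 7957 genes for wild-type replicates 1 to 4. Knockout replicate 4 stood apart, with 55.9% of the tested genes below 1 CPM (counts scaled by effective library size). That share was 10.5% to 28.9% in the other knockout libraries and 5.40% to 20.6% in wild type. The targeted gene Slc7a5 had 0 counts in each knockout library, while wild-type replicates 1 to 4 had 385, 194, 410 and 0, so it does not check the label of wild-type replicate 4. The T cell markers Cd3d, Cd3e, Cd3g, Cd247, Lat, Lck and Thy1 were detected in all 8 libraries, while Cd4 was at 1.78 CPM in knockout replicate 4 and at 373 CPM or more in every wild-type library. The 8 T cell markers in the file summed to 4635 to 6121 CPM in knockout and 6236 to 7803 CPM in wild type. All 8 were tested, and all 8 had lower estimates in knockout, with a median log2 fold change of −0.42. For 3 of the 8 the genotypes had no overlap, with the lower values in knockout. In edgeR 2 of the 8 had an unadjusted p under 0.05 and 0 passed the adjusted threshold. In bulk samples, fewer cells of a type and less RNA per cell cannot be told apart. The 10 CD8 T and natural killer cell markers summed to 84.7, 142, 67.8 and 365 CPM in knockout replicates 1 to 4. They summed to 71.7, 69.7, 59.9 and 18.0 CPM in wild-type replicates 1 to 4. In knockout replicate 4, which had the largest sum, 7 of these 10 were at 0. The 16 monocyte, macrophage and dendritic cell markers summed to 8741, 10040, 1975 and 11071 CPM in knockout replicates 1 to 4, against 3069, 1368, 1261 and 1311 CPM in wild-type replicates 1 to 4. Most of that sum was Cd74 and MHC class II. Of the 16 markers 9 were tested, 7 with higher estimates in knockout, 4 of the 9 at an unadjusted p under 0.05 and 0 past the adjusted threshold in edgeR. Cd68 was at 10.2 to 58.5 CPM in knockout and 19.8 to 47.9 CPM in wild type, and Lyz2 at 0 to 25.5 CPM in knockout and 22.0 to 25.7 CPM in wild type. Csf1r reached 44.3 CPM in knockout and was at 0 in wild type. Xcr1, Flt3 and C1qa reached 179, 53.3 and 4.34 CPM in knockout, against 49.5, 12.7 and 1.05 CPM in wild type. Others went the other way. Itgam, C1qb, C1qc and Cd14 reached 0, 0.157, 0 and 22.2 CPM in knockout, against 16.5, 20.5, 8.59 and 40.1 CPM in wild type. Adgre1 and Fcgr1 were at 0 in every library. The part of these markers in the results below was not tested.

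None of the 10 genes passed the test between genotypes. The edgeR quasi-likelihood test, adjusted by Benjamini-Hochberg over all tested genes, called 0 of 10 (adjusted p = 0.9999 for each), where 0.0% of all 8489 tested genes were called. At an unadjusted p under 0.05 there were 0 of 10, where 3.84% of all tested genes stood, 1.97% lower and 1.87% higher in knockout. DESeq2 called 0 of the 10, against 3.63% of all genes it tested, and limma voom called 0 of the 10 with and without library quality weights, against 0.0471% of all genes in either. The estimates split evenly, with 5 higher and 5 lower in knockout and a median log2 fold change of −0.05. Over all 8489 tested genes the median was −0.12, with 3817 higher and 4672 lower estimates. For 0 of the 10 genes did the genotypes separate fully, where 4.62% of all tested genes lay lower in every knockout library than in any wild-type library and 1.52% lay higher. The spread was wider in knockout. The coefficient of variation was larger in knockout for 9 of the 10 genes, with a median of 72.1% in knockout and 33.7% in wild type. Among all tested genes with counts in both genotypes it was larger in knockout for 82.2%, with medians of 95.8% in knockout and 53.1% in wild type, so the 10 genes were near the background in this respect.

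**Figure D1:**
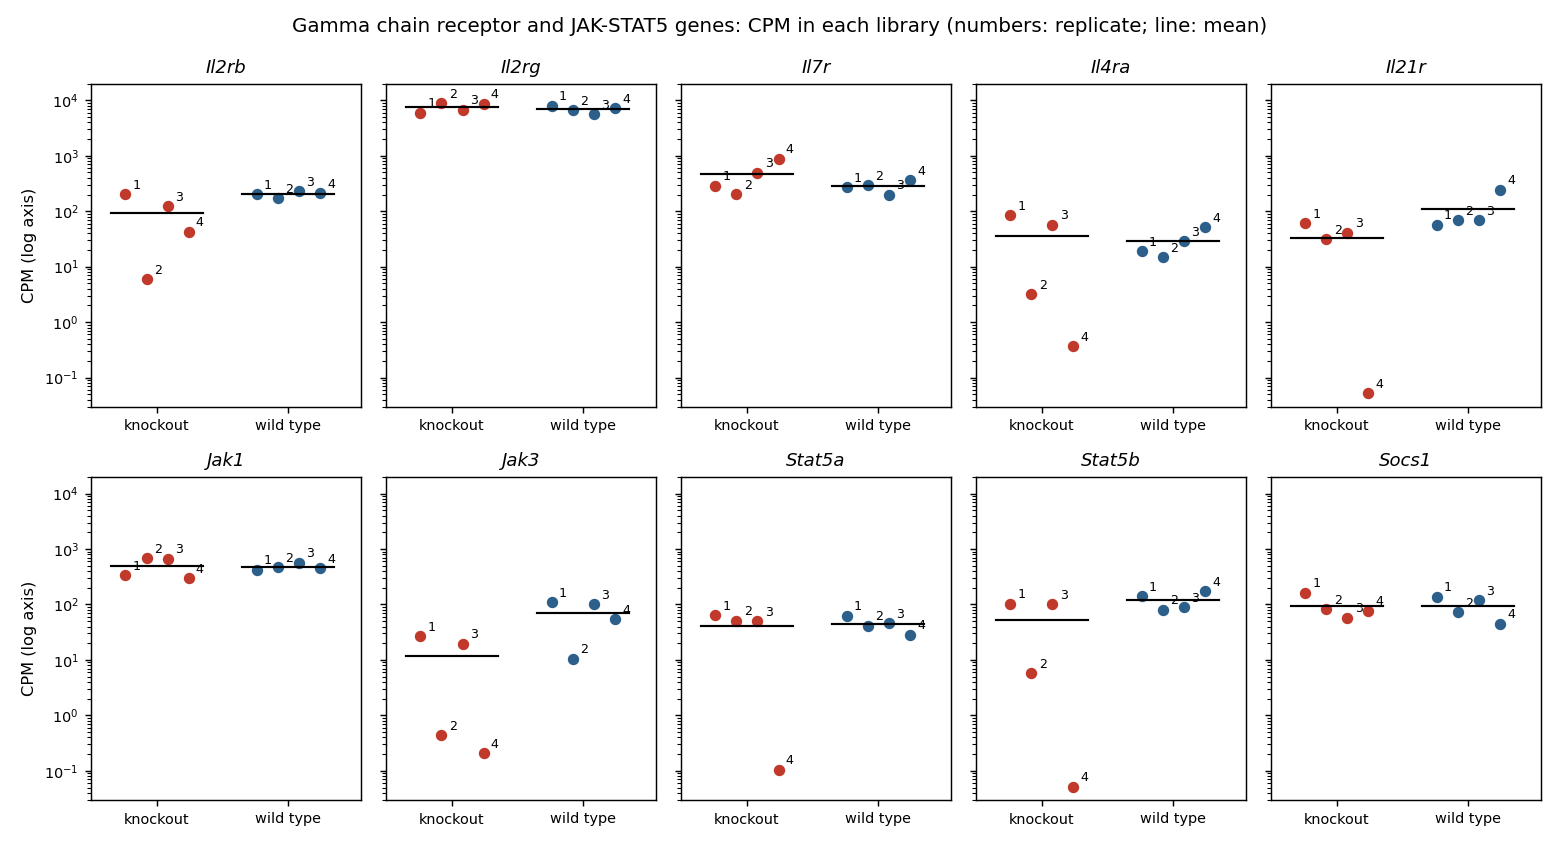
CPM of each of the 10 genes in the 4 knockout libraries (red, left) and the 4 wild-type libraries (blue, right) on a common log axis, with the replicate number beside each point and the mean as a line. Il2rg lies between 5669 and 8974 CPM in all 8 libraries, while Il4ra, Il21r, Jak3, Stat5a and Stat5b lie below 1 CPM in knockout replicate 4.

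Il2rg, the gamma chain shared by every receptor of the family, was by far the most abundant of the 10 and had the lowest coefficient of variation of them in knockout. It lies on chromosome X from 101264385 to 101268255 (GRCm38). It was at 5967, 8974, 6760 and 8728 CPM in knockout replicates 1 to 4, against 8066, 6662, 5669 and 7156 CPM in wild-type replicates 1 to 4. The genotypes overlapped, with 2 knockout libraries above the wild-type range and none below it. The level averaged 7607 ± 1475 CPM in knockout and 6888 ± 999 CPM in wild type (SD, n = 4 each; log2 fold change 0.14, SE 0.17). Its exons overlap 728 of 2387 bases with the gene model Gm20489, so some of its reads could be assigned differently by another counting. Of 3473 other genes with a mean of at least 50 CPM, Ahnak, Cd44 and Rpl10a had the profiles most like that of Il2rg over the 8 libraries. The root mean square difference of their centred log2(CPM + 1) from that of Il2rg was 0.16, 0.16 and 0.17, against a median of 0.85 over the genes compared. Because Il2rg itself varied little, any gene with a steady level scores low by this measure, so likeness here is mostly steadiness. Ahnak encodes a large scaffold protein, Cd44 an adhesion receptor of activated T cells and Rpl10a a ribosomal protein.

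Il2rb encodes the beta chain that interleukins 2 and 15 share, the chain that couples them to JAK1. The gene lies on chromosome 15 from 78479256 to 78511621. It was at 202, 5.89, 124 and 42.8 CPM in knockout replicates 1 to 4, against 205, 172, 228 and 212 CPM in wild-type replicates 1 to 4. Wild type was tight, 3 knockout libraries lay below its whole range, and knockout replicate 1 lay within it. The means were 93.8 ± 87.5 CPM in knockout and 204 ± 23.8 CPM in wild type (SD, n = 4 each), and the log2 fold change was −1.12 (SE 0.76). It was −1.82 without knockout replicate 1, −0.75 without knockout replicate 2 and −0.70 with an offset for GC content.

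Il7r encodes the alpha chain of the interleukin 7 receptor, a marker of resting and memory T cells. The gene lies on chromosome 15 from 9506159 to 9529941. It was at 290, 204, 496 and 882 CPM in knockout replicates 1 to 4, against 272, 292, 200 and 366 CPM in wild-type replicates 1 to 4. Knockout replicates 3 and 4 lay above all wild-type libraries and the other 2 lay among them. The means were 468 ± 302 CPM in knockout and 283 ± 68.2 CPM in wild type (SD, n = 4 each), and the log2 fold change of 0.73 (SE 0.42) was 0.21 without knockout replicate 4. The Il7r transcript is poor in GC, at the percentile 9.41 of abundant genes, and the log2 fold change was 1.14 with the GC offset. The offset also raised genes at middle GC. Il2rg, at percentile 54.9, went from 0.14 to 0.68, and the median of all genes was 0.16 with it. The part of GC content in these shifts was not tested.

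Il4ra and Il21r, the private chains of the interleukin 4 and interleukin 21 receptors, are near neighbours on chromosome 7, from 125552271 to 125579474 and from 125603252 to 125634397. Il4ra, whose exons overlap 571 of 6002 bases with the gene model Gm44876, also serves interleukin 13. It is expressed by myeloid cells as well as T cells. It was at 84.3, 3.17, 57.2 and 0.366 CPM in knockout replicates 1 to 4, against 19.2, 14.9, 28.7 and 51.3 CPM in wild-type replicates 1 to 4. Knockout lay on both sides of wild type, with 2 libraries above its range and 2 below it. The log2 fold change was 0.34 (SE 1.61), and −0.50 without knockout replicate 1.

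Il21r was at 60.4, 31.4, 40.7 and 0.052 CPM in knockout replicates 1 to 4, against 56.8, 68.6, 69.6 and 245 CPM in wild-type replicates 1 to 4. The single count behind 0.052 CPM came from knockout replicate 4, while wild-type replicate 4 stood far above the other 3. Knockout replicates 2 to 4 lay below every wild-type library, and the log2 fold change of −1.73 (SE 1.31) was −0.97 without wild-type replicate 4. Without replicate 4 of both genotypes, the libraries with the fewest genes in each, it was −0.58.

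Of the kinases, Jak1 was the steadier and Jak3 the more variable. Jak1, the kinase bound to the private and beta chains, lies on chromosome 4 from 101151974 to 101265282. It was at 337, 685, 672 and 299 CPM in knockout replicates 1 to 4, against 421, 467, 568 and 451 CPM in wild-type replicates 1 to 4. Wild type lay inside the knockout range, with 2 knockout libraries above and 2 below all wild-type libraries. The means were 498 ± 209 CPM in knockout and 477 ± 63.9 CPM in wild type (SD, n = 4 each; log2 fold change 0.06, SE 0.31). That estimate was −0.0059 with upper quartile scaling and −0.061 with library totals, so its sign depends on the scaling.

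Jak3, the kinase bound to the gamma chain, lies on chromosome 8 from 71676383 to 71690577. It had 635, 8, 495 and 4 counts in knockout replicates 1 to 4 (26.7, 0.445, 19.7 and 0.209 CPM), against 3915, 292, 3315 and 1242 in wild-type replicates 1 to 4 (109, 10.5, 102 and 54.8 CPM). Knockout replicates 1 and 3 exceeded wild-type replicate 2 and lay below the other wild-type libraries, while knockout replicates 2 and 4 lay below all of them. The log2 fold change of −2.55 (SE 1.67) was the lowest estimate of the 10 and ranged from −4.31 to −2.04 over 18 alternatives, with adjusted p-values of 0.426 or more. Its transcript lies at the GC percentile 99.0 of abundant genes, and the log2 fold change was −2.04 (SE 1.58) with the GC offset. Its exons overlap 404 of 5352 bases with Insl3, which reached at most 4.81 CPM.

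A share of counts within a library does not depend on scaling. The kinases were therefore also compared as the Jak3 share of Jak1 and Jak3 counts. This share is not adjusted for GC content, in which Jak1 lies at percentile 47.6 and Jak3 at percentile 99.0. In knockout replicates 2 and 4 it rests on 8 and 4 Jak3 counts. It was 7.35%, 0.0648%, 2.85% and 0.0699% in knockout replicates 1 to 4, against 20.5%, 2.21%, 15.2% and 10.8% in wild-type replicates 1 to 4. The 95% Wilson interval was 0.0328% to 0.128% in knockout replicate 2 and 1.97% to 2.47% in wild-type replicate 2, which covers counting error only, since amplified reads are not independent molecules. The share averaged 2.58 ± 3.44% in knockout and 12.2 ± 7.75% in wild type (two-sided exact permutation p = 0.0857, 0.171 after adjustment over the 2 shares tested, n = 4 each). The smallest p this design allows is 0.0286.

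**Figure D2:**
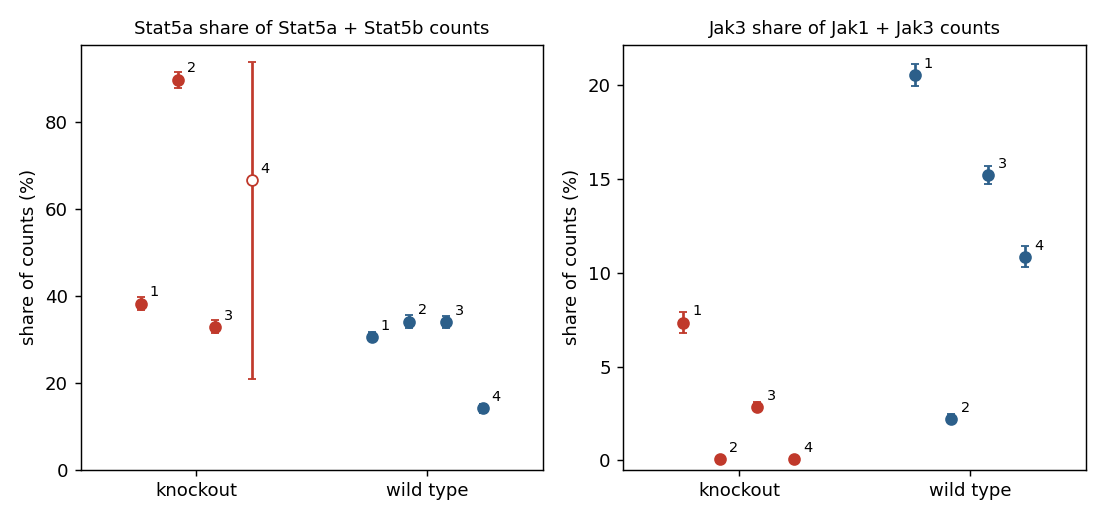
Stat5a share of Stat5a and Stat5b counts (left) and Jak3 share of Jak1 and Jak3 counts (right) in each library, in percent, with 95% Wilson intervals, knockout in red and wild type in blue. The open point, knockout replicate 4, rests on 3 counts and was left out of the test. The Jak3 share is below 7.4% in each knockout library and runs from 2.21% to 20.5% in wild type, so the genotypes overlap.

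Stat5a and Stat5b, the paired signal transducers of the pathway, are adjacent on chromosome 11, from 100859351 to 100885169 and from 100780731 to 100859004. Their products are close in sequence, so reads of one could be counted for the other or dropped as ambiguous. How such reads were handled is not stated in those sources. The exons of Stat5a also overlap 72 of 7133 bases with Stat3, which reached 818 CPM. Stat5a was at 64.1, 50.6, 49.7 and 0.104 CPM in knockout replicates 1 to 4, against 62.3, 41.8, 46.0 and 28.7 CPM in wild-type replicates 1 to 4. Apart from knockout replicate 4, where it had 2 counts, the knockout libraries lay within or just above the wild-type range. The log2 fold change was −0.12 (SE 1.44), and 0.28 without knockout replicate 4.

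Stat5b was at 103, 5.72, 101 and 0.052 CPM in knockout replicates 1 to 4, against 141, 80.8, 89.4 and 174 CPM in wild-type replicates 1 to 4. Knockout replicates 1 and 3 lay among the wild-type libraries and replicates 2 and 4 lay below all of them. The log2 fold change of −1.21 (SE 1.33) was −0.80 without knockout replicate 4 and −0.59 without replicate 4 of both genotypes. The Stat5a share of Stat5a and Stat5b counts was 38.3%, 89.8% and 32.9% in knockout replicates 1 to 3, against 30.6%, 34.1%, 34.0% and 14.1% in wild-type replicates 1 to 4. The mean was 53.7 ± 31.4% (n = 3) in knockout and 28.2 ± 9.52% (n = 4) in wild type, with a two-sided exact permutation p of 0.171, where 0.0571 is the smallest possible. The difference of 25.5 percentage points was 7.39 without knockout replicate 2, so that library decides its size.

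Socs1, the inhibitor of these kinases, lies on chromosome 16 from 10783808 to 10785536. It was at 164, 82.9, 57.4 and 77.8 CPM in knockout replicates 1 to 4, against 138, 73.0, 119 and 44.8 CPM in wild-type replicates 1 to 4. The genotypes interleaved, at 95.5 ± 47.0 CPM in knockout and 93.7 ± 42.6 CPM in wild type (SD, n = 4 each; log2 fold change 0.03, SE 0.65). Its transcript lies at the GC percentile 96.6, and the log2 fold change was 0.85 (SE 0.78) with the GC offset, under which the median of all genes was 0.16.

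**Figure D3:**
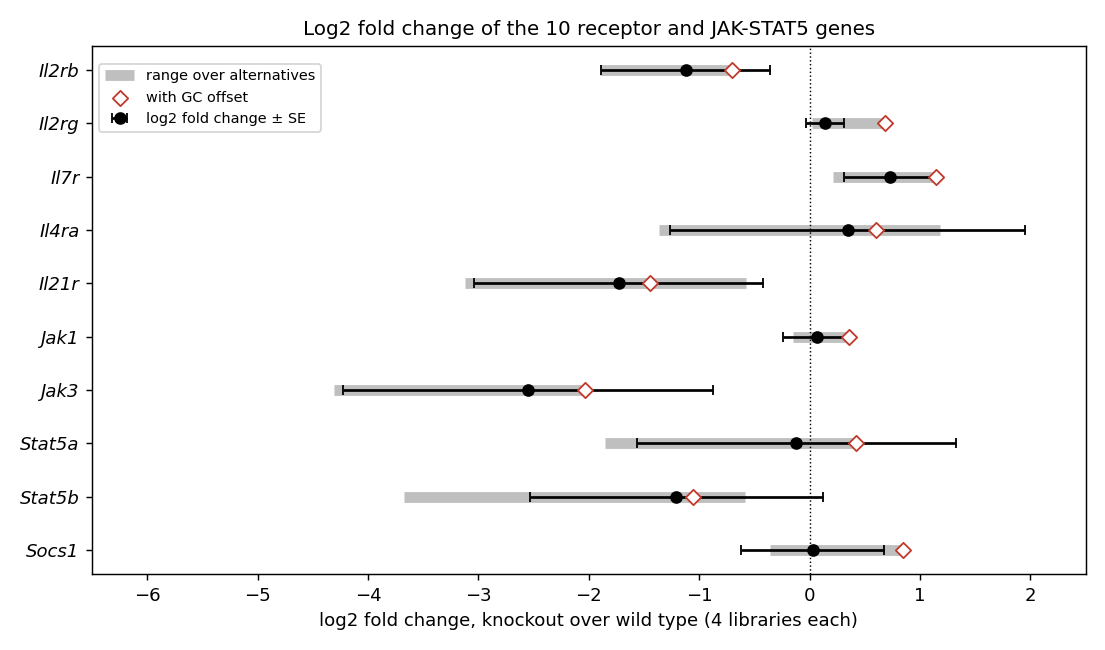
Log2 fold change of each gene, knockout over wild type, with its SE (black), the value with an offset for GC content (open red diamond) and the range over all alternatives (grey). Jak3 lies lowest at −2.55, Il7r highest at 0.73, and the range of Il4ra, Jak1, Stat5a and Socs1 spans 0.

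Levels were ordered by CPM per kilobase of annotated exons, taken over all transcripts of a gene. Such a length can exceed that of the main transcript. For Socs1 it was 2908 bases, more than the span given above, which lowers its level per kilobase. Places below Il2rg could therefore differ with other lengths. In knockout the order was Il2rg at 3187 ± 618, Il7r at 100.4 ± 64.8, Jak1 at 68.9 ± 28.9, Socs1 at 32.9 ± 16.2, Il2rb at 21.9 ± 20.4, Il21r at 9.97 ± 7.56, Stat5b at 9.50 ± 10.4, Il4ra at 6.04 ± 6.89, Stat5a at 5.76 ± 3.94 and Jak3 at 2.20 ± 2.53 CPM per kilobase (SD, n = 4). In wild type it was Il2rg at 2886 ± 419, Jak1 at 66.0 ± 8.85, Il7r at 60.6 ± 14.6, Il2rb at 47.7 ± 5.54, Il21r at 33.1 ± 27.1, Socs1 at 32.2 ± 14.6, Stat5b at 21.9 ± 7.97, Jak3 at 12.9 ± 8.56, Stat5a at 6.27 ± 1.95 and Il4ra at 4.76 ± 2.70 CPM per kilobase (SD, n = 4). In both genotypes the gap below Il2rg was clear of overlap, and every other pair of neighbours overlapped in range. The gamma chain transcript was thus far more abundant per length than any of its partner chains or kinases.

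Around the receptors and kinases, 32 of 36 further genes of the pathway were tested in 5 groups. In edgeR 0 of them passed in either direction, as did 0 of all 8489 tested genes, so that count does not set the pathway apart. Over all tested genes the median log2 fold change was −0.12. Of 6 ligand genes 3 were tested, all with higher estimates, none above 0.36 and each with an SE of 1.69 or more. Il21 was at 96.3, 41.6, 22.7 and 0 CPM in knockout replicates 1 to 4, against 23.7, 35.7, 24.8 and 41.2 CPM in wild-type replicates 1 to 4. Il2, the T cell growth factor, was at 26.7, 0.667, 45.5 and 0.157 CPM in knockout replicates 1 to 4, against 8.17, 27.2, 12.003 and 16.5 CPM in wild-type replicates 1 to 4. Knockout thus held both the highest and the lowest value of either cytokine. Il7 and Il9 had 0 counts in all 8 libraries, which allows up to 0.119 to 0.167 CPM in a knockout library and 0.0834 to 0.132 CPM in a wild-type library (3 counts).

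Of 5 private and related receptor chains 4 were tested, 2 with higher and 2 with lower estimates. Il2ra, the alpha chain that gives the interleukin 2 receptor its high affinity, was at 1328, 1113, 1148 and 1897 CPM in knockout replicates 1 to 4, against 371, 652, 826 and 1354 CPM in wild-type replicates 1 to 4. The 3 lowest values were all wild type, but wild-type replicate 4 lay among the knockout libraries. The log2 fold change was 0.78 (SE 0.34, edgeR unadjusted p = 0.0440, adjusted p = 0.9999). Crlf2, a chain of the receptor for thymic stromal lymphopoietin that pairs with Il7r, was at 0 to 25.1 CPM in knockout and 3.504 to 63.6 CPM in wild type.

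Of the 6 other JAK and STAT genes 1 had a higher and 5 a lower estimate, with a median log2 fold change of −0.33. Stat3, the main transducer of interleukins 6 and 21, averaged 494 ± 109 CPM in knockout and 604 ± 154 CPM in wild type (SD, n = 4 each; log2 fold change −0.29, SE 0.26). Leaving out knockout replicate 2 gave −0.46 for Stat3, and leaving out wild-type replicate 4 gave −0.11. Stat4, the transducer of interleukin 12, was at 127, 53.0, 105 and 275 CPM in knockout replicates 1 to 4, against 145, 144, 202 and 193 CPM in wild-type replicates 1 to 4. Knockout replicate 4 lay above all wild-type libraries and the other 3 below them. The log2 fold change of Stat4 was −0.29 (SE 0.50), −0.86 without knockout replicate 4 and −0.042 without knockout replicate 2. With the GC offset the estimates of Stat3 and Stat4 were above 0, at 0.35 and 0.46. The exception in the group, named after its values were seen, was Jak2, the kinase of many cytokine receptors outside the family. Jak2 was at 201, 187, 143 and 305 CPM in knockout replicates 1 to 4, against 74.9, 66.9, 96.7 and 106 CPM in wild-type replicates 1 to 4. Every knockout library lay above every wild-type library, but Jak2 missed the threshold, with an edgeR adjusted p of 0.637 and a log2 fold change of 1.28 (SE 0.42).

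Of the 11 STAT5 target genes 5 had higher and 6 lower estimates, with a median log2 fold change of −0.72. That median is the estimate of Cish alone, and the median of all tested genes was −0.12. The SE of the 11 estimates ran from 0.22 to 2.58, so the median does not show a lower output of STAT5. Ccnd2, which encodes cyclin D2, was at 1132, 2183, 1651 and 1636 CPM in knockout replicates 1 to 4, against 800, 821, 854 and 1082 CPM in wild-type replicates 1 to 4. The genotypes did not overlap, and the log2 fold change of 0.89 (SE 0.22) did not pass (edgeR adjusted p = 0.460). Cish, a feedback inhibitor that STAT5 induces, was at 119, 58.3, 75.8 and 142 CPM in knockout replicates 1 to 4, against 253, 97.1, 64.8 and 236 CPM in wild-type replicates 1 to 4. These values overlapped (log2 fold change −0.72, SE 0.56), and the estimate was −0.43 without wild-type replicate 1 and 0.077 with the GC offset.

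Of the 8 inhibitors of JAK-STAT signalling 3 had higher and 5 lower estimates, with a median log2 fold change of −0.18. Ptprc, the phosphatase CD45, was at 2333, 3320, 2130 and 2526 CPM in knockout replicates 1 to 4, against 1222, 1789, 1769 and 2070 CPM in wild-type replicates 1 to 4. The genotypes did not overlap, although knockout replicate 3 was close to wild-type replicate 4, and Ptprc missed the threshold, with an edgeR adjusted p of 0.780 and a log2 fold change of 0.59 (SE 0.21). Ptpn1, a phosphatase of JAK2 and TYK2, was at 186, 325, 166 and 0.261 CPM in knockout replicates 1 to 4, against 352, 219, 277 and 239 CPM in wild-type replicates 1 to 4. Its log2 fold change of −0.68 (SE 1.12) was −0.29 without knockout replicate 4 and −1.24 without knockout replicate 2. It was −0.18 with the GC offset and −2.42 in limma voom.

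**Figure D4:**
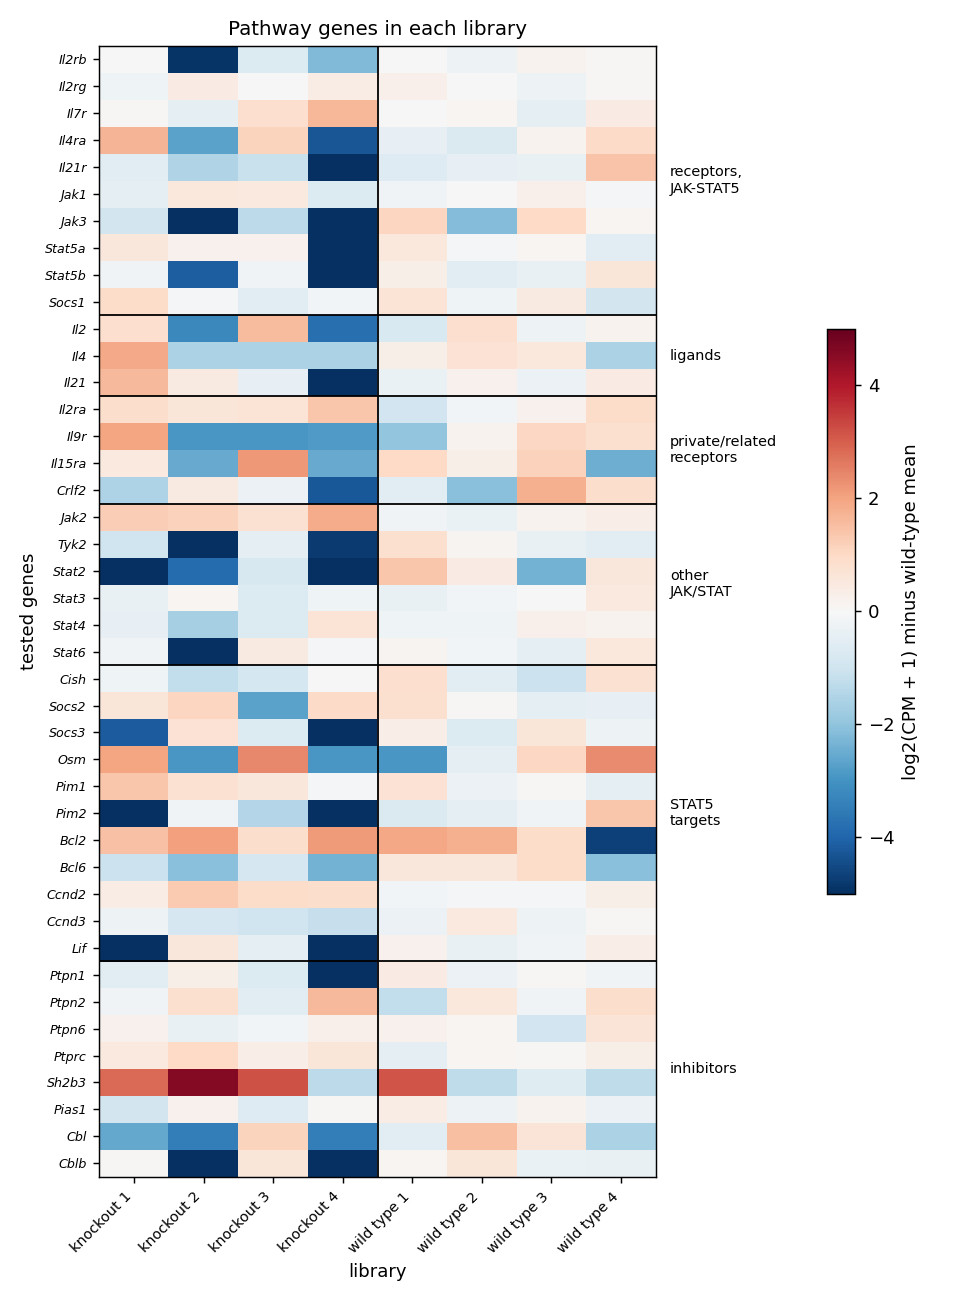
Log2(CPM + 1) of the 10 receptor and JAK-STAT5 genes and of the 32 tested pathway genes in each library, minus the wild-type mean of the gene, with knockout on the left and colours saturated at 5 in either direction. The darkest blue cells, where a transcript is near 0, are most frequent in knockout replicate 4, occur also in knockout replicates 1 and 2 and differ from gene to gene, while Il2rg, Ccnd2, Jak2 and Ptprc show no such cell.

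Values near 0 gathered in a few libraries. Below 1 CPM were 0, 1, 0 and 5 of the 10 genes in knockout replicates 1 to 4, and 0 in each wild-type library. For the 32 pathway genes the numbers were 4, 10, 2 and 17 in knockout replicates 1 to 4 and 2, 1, 1 and 5 in wild-type replicates 1 to 4. In knockout replicate 4 the 10 genes fell into separate ranges, 5 of them at 42.8 CPM or more and 5 at 0.366 CPM or less. The 5 low ones were Il4ra, Il21r, Jak3, Stat5a and Stat5b, and 55.9% of all tested genes were below 1 CPM in that library, so their number is near the background. In knockout replicate 2 Jak3 was below 1 CPM, and Il4ra, Stat5b and Il2rb were at 3.17, 5.72 and 5.89 CPM. The number of genes detected was lowest in those 2 knockout libraries, and its part in the wide spread was not tested.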

How the data were processed

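RNA was purified on micro columns with DNase treatment and went into a single-cell or low-input library kit, per the labels' protocols. The authors deposited raw counts, integers per symbol without any normalization. The submitters' processing notes list mm10, HISAT2 2.1.0, edgeR 3.28.1 and featureCounts; for the annotation and strand setting, not given in the sources used here, nothing was assumed, so overlapping genes cannot be told apart.

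From these counts, genes were filtered with filterByExpr (minimum count 10, minimum total 15), scaled by TMM and compared by edgeR 4.0.16 quasi-likelihood (robust, genotype as the only term) in R 4.3.3. Benjamini-Hochberg adjustment ran over all 8489 tested genes, with a threshold of 0.05. Each SE was derived as the absolute fold change (log2) divided by the root of F. Exon lengths and transcript GC content came from GENCODE M21, gene positions from RefSeq (both GRCm38, the coordinates of mm10). The GC offset was a loess curve per library (span 0.75) of log2 CPM deviations, fitted where mean log2 CPM exceeded 5; GC was known for 8200 tested genes (96.6%). GC percentiles are among tested genes with a mean above that level. CPM is counts per effective library size, as edgeR gives it. Shares of counts (libraries with at least 10 counts of the pair) were compared by two-sided exact permutation over libraries in scipy 1.17.1. The alternatives were no filter, a mean CPM of at least 50, DESeq2 size factors, upper quartile scaling, library totals, DESeq2 1.42.0, limma 3.58.1 voom with and without quality weights, a block for replicate number, leaving out each library, both libraries numbered 4 left out, and the GC offset. The scripts were tested on simulated data. For the edgeR fit these counts had the same spread for all genes and libraries, unlike the real ones. That test therefore does not show how often a real change would be called here.

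The 10 genes and all lists were chosen with earlier results of these data known. Named were the 10 genes, Slc7a5, the 2 most abundant tested genes of each pathway list or those that passed, and the 3 genes most like Il2rg. One gene of the pathway lists is not reported here and was left out of their counts. Marker lists of further cell types are summed here: CD8 T and natural killer cells 67.8 to 365 CPM in knockout and 18.0 to 71.7 CPM in wild type, B and plasma cells at most 39.6 and 19.8 CPM, neutrophils at most 79.2 and 82.7 CPM, mast cells and basophils at most 100.2 and 55.2 CPM, and synovial fibroblasts 39.3 to 129 and 103 to 157 CPM, knockout before wild type in each. The fibroblast list shares Thy1 with the T cell list, at 37.1 to 106 CPM in knockout and 61.9 to 143 CPM in wild type; Col1a2 and Pdgfra were at 0 in every library and Col1a1 and Col3a1 at most 0.611 CPM.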

Additional observations from a re-analysis of the deposited data

Results flagged for a closer look

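Il21r in wild type was marked because 1 library stood far from the other 3: replicate 4 was at 245 CPM, against 56.8, 68.6 and 69.6 CPM in replicates 1 to 3. Of 53 groups of 4 libraries examined this was the 1 so marked, and chance marks about 1 in 20 groups. In knockout the gene was at 0.052 to 60.4 CPM.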

How the results depend on the processing

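Under every alternative run 0 of the 10 genes were called, and the directions of Il2rb, Il2rg, Il7r, Il21r, Jak3 and Stat5b held. Their log2 fold changes ranged from −1.90 to −0.70 for Il2rb, 0.02 to 0.68 for Il2rg, 0.21 to 1.14 for Il7r, −3.12 to −0.58 for Il21r, −4.31 to −2.04 for Jak3 and −3.68 to −0.59 for Stat5b. The number of genes called among all tested was 0 in edgeR under each setting, 387 in DESeq2, 4 in limma voom and 4 with quality weights. The stricter filter removed Il4ra, Jak3 and Stat5a. The estimate of Il4ra turned to −1.37 in limma voom and −0.97 with the replicate block, and lay between −0.50 (without knockout replicate 1) and 0.79 with each library left out. Jak1 turned to −0.0059 with upper quartile scaling, −0.061 with library totals, −0.027 in limma voom and −0.030 with the block (−0.15 to 0.23 with each library left out, below 0 without knockout replicate 2 or 3). Stat5a turned to 0.42 with the GC offset and 0.11 without both libraries numbered 4 (−0.41 to 0.28, above 0 without knockout replicate 4 or wild-type replicate 1). Socs1 turned to −0.024 with the stricter filter, −0.066 with upper quartile scaling, −0.030 with library totals, −0.10 in limma voom, −0.19 with quality weights and −0.14 without both libraries numbered 4 (−0.36 to 0.28, below 0 without knockout replicate 1 or wild-type replicate 2 or 4). Il21 turned to −1.99 in limma voom and −0.41 with the block (−0.54 to 0.76). Il2 turned to −1.90 in limma voom, −1.998 with the block and −0.090 with the GC offset (−0.80 to 0.60). Ptpn1 kept its direction, at −2.42 in limma voom, −1.41 with the block, −0.18 with the GC offset and −1.24 to −0.29 with each library left out. With the GC offset Stat3, Stat4, Cish and Cd44 turned to 0.35, 0.46, 0.077 and 0.33. Cd44 was also at 0.0080 with DESeq2 size factors and 0.0068 in DESeq2 (−0.13 to 0.044 with each library left out), Ahnak at −0.034 to 0.27 and Rpl10a at −0.0025 to 0.21. Slc7a5, removed by the filter, had an adjusted p of 0.0183 in DESeq2. The cause of these turns was not tested. The median log2 fold change of all genes was −0.12, but 0.16 with the GC offset, −0.20 with upper quartile scaling, −0.22 with library totals, −1.28 in limma voom, −0.36 with quality weights and −0.68 with the block. The labels do not say whether replicate numbers pair the libraries. Deviations from the genotype means correlated at −0.04, 0.03, −0.01 and −0.02 in numbers 1 to 4. The best correlation of each knockout library with any wild-type library was only 0.03 to 0.05, so this check cannot tell whether libraries were paired. Only knockout replicate 2 correlated best with its own number. With the replicate block 0 genes were called. The difference in the Jak3 share was −9.62 percentage points with the block (p = 0.125, exact) and −13.0 to −6.84 with each library left out; that in the Stat5a share was 20.8 with the block (exact p = 0.5) and 7.39 to 35.8 with each left out. Depth limits the lowest values: 3 counts are 0.119 to 0.167 CPM in knockout and 0.0834 to 0.132 CPM in wild type.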
